A study of Mus musculus with 6 samples.

Results

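The intergenic autosomal loci away from chromosome ends are 306 assembled transcript models, forming 299 loci once overlapping models are joined, of the 7959 models (7853 loci) counted in the study. A member lay on chromosomes 1 to 19 with less than 50% of its exon bases inside any RefSeq gene span. Its first start was at or above 10 Mb, more than 1.1 Mb below the chromosome length, and it held more than 3 reads over both input libraries. The members were thus selected on the measured input reads, and values against the input below are descriptions with no test. The RNA came from chromatin of mouse erythroleukemia (MEL) cells of strain C57BL/6, crosslinked with formaldehyde, and was sequenced in 3 groups of 2 libraries. These were the input chromatin, chromatin isolated with the masked TH59-DB probe, named as the negative control, and chromatin isolated with TH59-DB, the pyrrole-imidazole polyamide aimed at telomeres. The cells carried no stated allele or drug, all 3 groups shared the same crosslinking, and libraries came from a SMARTer stranded total RNA kit. Library number 2 is written in the labels, the unnumbered library of each group is called number 1 here, and nothing says whether they came from separate cultures.

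Pyrrole-imidazole polyamides bind the minor groove of DNA at short chosen sequences, and telomeres of vertebrates are long arrays of the repeat TTAGGG. Telomeres are transcribed into the noncoding RNA TERRA, and RNAs made elsewhere can also be held on telomeric chromatin. Transcription outside annotated genes gives rise to read-through downstream of genes, divergent RNA upstream of promoters, unannotated noncoding RNAs and transcripts of repeats.

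The libraries held between 1803723 and 3122558 reads in total, with 35.7% to 69.2% inside models. CPM here means reads for every 1000000 reads of that total, so a single read was worth 0.320 to 0.554 CPM. In TH59-DB 1 every model had at least 5 reads and every member at least 6, which held in no other library. No model had 0 reads in TH59-DB 1, against 1404 to 4341 models in each other library. The set of models is thus bounded from below in that library, and whether it served to select them is unknown. TH59-DB 1 enters each TH59-DB value below. Of 22 erythroid genes checked, 12 had a model, among them Gata1 and Klf1, transcription factors of red cell development, and their summed level was 487 to 1331 CPM. The globin genes, Alas2 and Slc4a1 were among those with none. Markers of other blood cells had models for 2 of 10 genes (Itga2b and Laptm5, 4.06 to 49.4 CPM), and fibroblast and epithelial markers for 0 of 4. No member had an erythroid gene of the list as its nearest gene. In these bulk samples, fewer cells making an RNA and less of it per cell cannot be told apart.

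Some members held known features whole. The miRNAs and promoter windows among these are shown because they say what kind of RNA an intergenic model can be. A member on chromosome 11 from 48823721 to 48823923 also held a whole tRNA gene, n-TGacc1, and one over Rn18s-rs5 is described below. Sequences are from RefSeq on GRCm38.p6. A member on chromosome 11 from 87756663 to 87757090 held the hairpins of Mir142 and Mir142b, made from opposite strands in blood cells. A member on chromosome 14 from 115043744 to 115044127 held Mir18 and Mir19a of the miR-17 to miR-92 cluster, known for driving cell growth. The mature miRNAs follow with the seed (bases 2 to 8) in capitals, and no 2 of these 6 share a seed.
mmu-miR-142a-5p: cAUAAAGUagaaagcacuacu
mmu-miR-142a-3p: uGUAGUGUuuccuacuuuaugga
mmu-miR-142b: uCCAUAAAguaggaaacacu
mmu-miR-18a-5p: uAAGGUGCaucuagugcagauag
mmu-miR-18a-3p: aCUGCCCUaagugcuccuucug
mmu-miR-19a-3p: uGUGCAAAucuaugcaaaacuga
The hairpins of the chromosome 14 member are printed with the mature miRNAs in capitals, Mir18 from 115043851 to 115043946 and Mir19a from 115044000 to 115044081, both on the plus strand.
Mir18: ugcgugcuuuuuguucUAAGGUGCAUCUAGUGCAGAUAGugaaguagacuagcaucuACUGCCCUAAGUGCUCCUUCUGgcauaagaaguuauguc
Mir19a: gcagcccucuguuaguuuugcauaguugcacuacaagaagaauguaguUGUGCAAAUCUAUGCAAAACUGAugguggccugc
A further pair of members held a whole promoter window, 250 bases before to 50 after the gene start. One covered that of Med13, a subunit of the Mediator kinase module (chr11:86357547-86357846, minus strand), and the other that of the kinase gene Slk (chr19:47579769-47580068, plus strand).
Med13 promoter: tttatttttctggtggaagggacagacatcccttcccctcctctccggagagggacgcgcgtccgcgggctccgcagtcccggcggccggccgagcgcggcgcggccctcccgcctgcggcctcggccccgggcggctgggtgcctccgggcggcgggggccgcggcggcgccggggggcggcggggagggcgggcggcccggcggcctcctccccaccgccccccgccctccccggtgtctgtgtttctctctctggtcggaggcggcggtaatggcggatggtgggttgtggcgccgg
Slk promoter: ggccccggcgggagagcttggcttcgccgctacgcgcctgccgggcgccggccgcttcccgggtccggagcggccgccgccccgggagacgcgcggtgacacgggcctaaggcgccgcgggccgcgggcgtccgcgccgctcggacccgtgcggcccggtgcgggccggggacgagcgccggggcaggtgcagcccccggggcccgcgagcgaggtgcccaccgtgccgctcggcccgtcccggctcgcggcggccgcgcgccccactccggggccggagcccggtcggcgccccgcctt
GC made up 78.3% and 85% of these windows, against a median of 52.7% over all promoter windows of 300 bases. The telomere repeat unit TTAGGG was searched on either strand, was in 0 of these windows and in 10.6% of all promoter windows. A genome sequence was not used here, so the other members were not searched.

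The members holding these miRNAs and promoters had at most 67 reads in any library. The miR-142 member, counted over its 428 bases and not over the mature miRNAs, had 4 and 11 reads in the input libraries, 23 and 36 in the masked libraries and 18 and 13 in the TH59-DB libraries. Its log2 fold change of TH59-DB against the masked probe was -0.53 (SE 1.07, adjusted p = 0.966, edgeR's quasi-likelihood test with Benjamini-Hochberg adjustment over all 5385 models tested). The miR-18 and miR-19a member had 11 and 1 input reads, 0 and 14 masked reads and 35 and 2 TH59-DB reads, so that 1 library of each group held nearly all of them. The Slk member, which runs on past the start site, had 36 and 65 input, 32 and 67 masked and 28 and 38 TH59-DB reads (log2 fold change -0.04, SE 0.69, edgeR adjusted p = 0.993). The Med13 member had 18 and 15, 4 and 23, and 12 and 12 reads in that order (log2 fold change 0.56, SE 1.23, edgeR adjusted p = 0.972). A member on chromosome 3 from 108554350 to 108554752 covered 53 of the 61 bases of Scarna2, a guide RNA of Cajal bodies. It had 75 and 81 input reads, 35 and 67 masked reads and 117 and 171 TH59-DB reads, with both TH59-DB libraries above all others in CPM. Its log2 fold change of 2.02 (SE 0.65) did not pass (edgeR unadjusted p = 0.0101, adjusted p = 0.220). These members were picked for the features they hold, after their values had been seen.

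The members were short, mostly unspliced and spread over all 19 autosomes. Their median length was 246.5 bases (range 42 to 6105). A single exon made up 291 of them, 95.1% against 68.2% of the 4677 models that lay in gene spans under otherwise equal conditions. The other 15 had 2 exons, and 293 carried no strand. Chromosome 11 held 41 members, chromosome 5 held 31, chromosome 2 held 28 and chromosome 3 held 26, and chromosome 18 held 4. No exon base of 288 members lay in a gene span, and 18 touched one. The median distance to the nearest span was 6.52 kb (quartiles 1.62 and 19.7 kb, largest 527 kb). The nearest gene was protein coding for 137 members, an lncRNA for 77, a pseudogene for 71 and of another kind for 21.

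The thresholds of the rule cut through a continuous range. With 4 input reads, just inside, lay a member touching Pkp4 on chromosome 2 from 59346623 (0 and 4 input reads) and one 76 bases upstream of Slc20a1 on chromosome 2 from 129198278 (3 and 1). With 3 input reads, just outside, lay models on chromosome 2 from 14152203 near Stam (0 and 3) and on chromosome 3 from 10454332 near Snx16 (1 and 2). By gene-span share, the Mir18 member with 49.2% and one over Stub1 with 45.6% were inside, and models over Snord13 with 50.8% and Gm34908 with 53.3% were outside. By start, members at 11.1 Mb near Ndufaf6 and 11.5 Mb on chromosome 10 were inside, and models at 8.80 Mb on chromosome 14 and 9.79 Mb on chromosome 17 outside. By distance to the chromosome end, members near N4bp2l2 at 1.17 Mb and Fasn at 1.28 Mb were inside, and models near Hoxc6 at 1.03 Mb and Fam3b at 0.740 Mb outside.

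The typical member was present at only a few reads in each library. The median level over the 306 members was 2.35 and 3.50 CPM in the input libraries, 1.52 and 5.77 CPM in the masked libraries and 10.5 and 5.02 CPM in the TH59-DB libraries. Members with 0 reads numbered 20 and 7 in the input, 130 and 28 in the masked and 0 and 22 in the TH59-DB libraries. The median was lowest in masked TH59-DB 1 and highest in TH59-DB 1, and the second libraries of both probes were close to each other. Across the members, the Spearman correlation of levels was 0.643 for the inputs, 0.629 for the masked pair and 0.615 for the TH59-DB pair, while masked TH59-DB 2 and TH59-DB 2 reached 0.708. These values are across members of unequal length and depth and describe these libraries only. Over all models, the inputs had 0.922, the masked pair 0.700 and the TH59-DB pair 0.568, and masked TH59-DB 2 and TH59-DB 2 had 0.773.

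**Figure D1:**
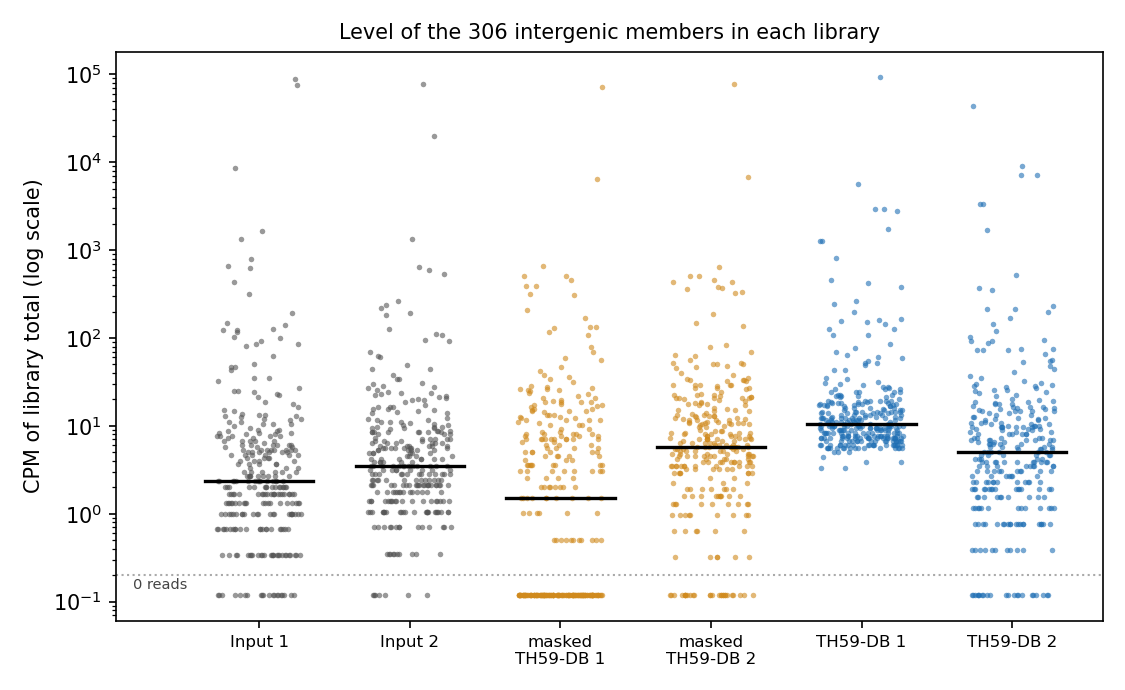
Level of each of the 306 members in each library, in CPM of the library total on a log scale, with 1 point per member, the median as a bar and members with 0 reads drawn under the dotted line. The medians lie between 1.52 CPM in masked TH59-DB 1 and 10.5 CPM in TH59-DB 1, and the highest member stands between 44127 and 92463 CPM.

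A pair of members held most of the reads. The member on chromosome 17 from 39842884 to 39848988 is 6105 bases long and contains the whole of Rn18s-rs5, which RefSeq lists as a pseudogene of 18S ribosomal RNA, with 43.2% of its bases in gene spans. It took 8.80% and 7.75% of the input libraries, 7.13% and 7.79% of the masked libraries and 9.25% and 4.41% of the TH59-DB libraries. Its groups overlapped, and the log2 fold change was -0.04 (SE 1.19, edgeR adjusted p = 0.996). Reads of ribosomal RNA can come from many genomic copies, so its place on chromosome 17 is uncertain. A 188-base member on chromosome 6 from 49236453 to 49236640, 7.28 kb from the splicing-factor gene Tra2a, had 228457 and 56147 input reads, 12794 and 21163 masked reads and 10280 and 4335 TH59-DB reads. Every capture library lay below both inputs in CPM, with the masked level 0.138 and the TH59-DB level 0.0767 of the input level. Between the probes its log2 fold change was -0.87 (SE 1.22, edgeR adjusted p = 0.949).

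The members together took 14.3% ± 5.52 (SD, n = 2) of the input libraries, 8.85% ± 0.627 of the masked libraries and 10.0% ± 2.65 of the TH59-DB libraries. TH59-DB and the masked probe did not separate (exact permutation test, 2-sided, p = 1, where 0.333 is the smallest p that 2 against 2 libraries allow). Without the 2 members above, the shares were 1.20% ± 0.748, 0.725% ± 0.140 and 2.83% ± 1.05. Both TH59-DB libraries (2.08% and 3.57%) were then above both masked libraries (0.626% and 0.823%; exact permutation p = 0.333, the smallest possible). When 3 further clusters that both probes captured, described below, were also left out, a choice made after seeing the data, the shares were 0.476% ± 0.137 in the masked and 0.808% ± 0.359 in the TH59-DB libraries, and the libraries of the probes overlapped.

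Apart from a member of 347 bases on chromosome 8, the remaining members with the highest input level were short. These short members differed between the input libraries by 6.33-fold or more. On chromosome 4 from 149817729 to 149817834, 15.2 kb from Gm42354, a member of 106 bases had 25595 and 3868 input reads, 414 and 1169 masked reads and 4979 and 1333 TH59-DB reads. On chromosome 2 from 22744824, near Apbb1ip, an adaptor gene of leukocyte integrin signaling, a member of 152 bases had 3976 and 271 input, 336 and 259 masked and 360 and 95 TH59-DB reads. Both were higher in Input 1 than in Input 2 in CPM, by 6.33-fold and 14-fold. Members on chromosome 3 from 62159076 (2335 and 141 input reads), chromosome 14 from 19278150 (1975 and 128) and chromosome 1 from 122357159 (1886 and 126) did the same, by 15.8-fold, 14.8-fold and 14.3-fold. The last of these had 1478 reads in TH59-DB 1 and 16 in TH59-DB 2. On chromosome 8 from 15519777 to 15520123 a member of 347 bases had 4897 and 1841 input reads, 892 and 1443 masked reads and 439 and 307 TH59-DB reads. Its levels stood in the order input, masked, TH59-DB with no overlap between groups in CPM, and its log2 fold change between the probes was -1.25 (SE 0.89, edgeR adjusted p = 0.826).

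The direction of the difference between the inputs went with model length. Of 143 members with at least 20 input reads, 19 (13.3%) were at least 4-fold higher in Input 1 and 14 (9.79%) at least 4-fold higher in Input 2. Over all 3953 models with that depth the shares were 1.59% and 2.58%. The 19 were 42 to 160 bases long with a median of 86, and the 14 were 157 to 1435 bases long with a median of 359. The other 110 had a median of 291 bases. All 19 were also higher in TH59-DB 1 than in TH59-DB 2, and 13 of them in masked TH59-DB 1 than in masked TH59-DB 2. Of the other 110 members, 78 were higher in the first TH59-DB library and 19 in the first masked one. In gene spans, 40 models were at least 4-fold higher in Input 1, with a median of 124 bases, and 73 in Input 2, with a median of 286. The other 3151 there had a median of 313 bases. Models higher in Input 2 were thus longer than the rest among the members alone. The part that RNA size or read length had in this was not tested. Of 104 members with at least 20 reads in every group, 5 were at least 2-fold higher in library 1 in all 3 groups, and 2 in library 2, near Zfp971 on chromosome 2 and near Gm35739 on chromosome 15.

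**Figure D2:**
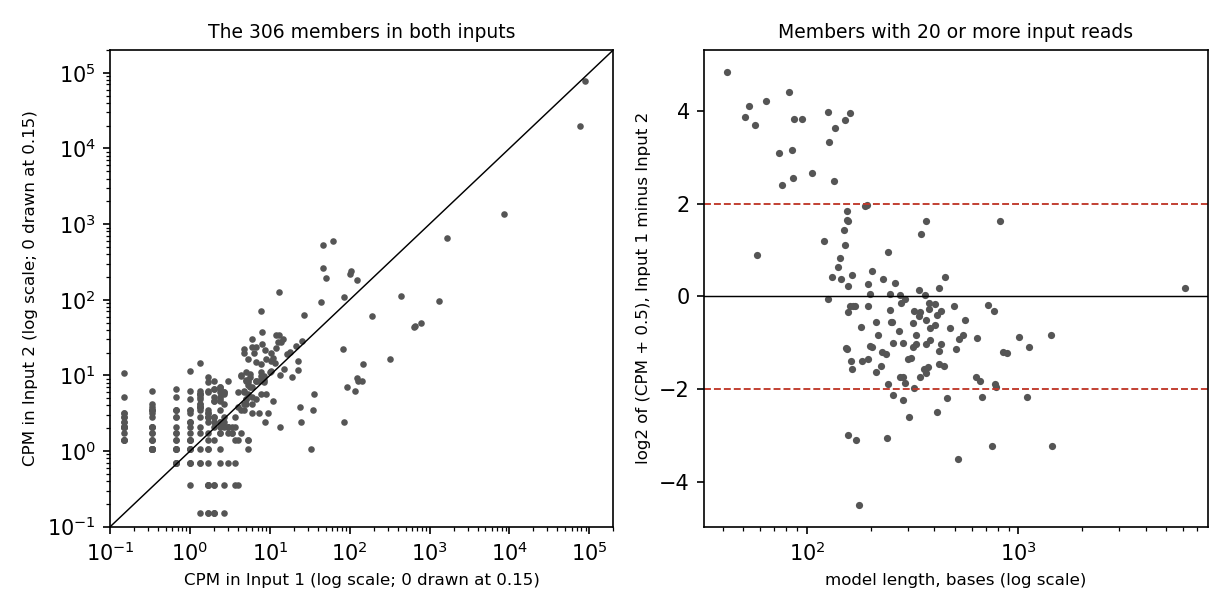
Left, the level of the 306 members in Input 1 against Input 2, in CPM on log axes with the line of equality. Right, the log2 ratio of Input 1 over Input 2 (pseudocount 0.5 CPM) against model length for members with at least 20 input reads, with dashed lines at 4-fold; the points above the upper line are 42 to 160 bases long.

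A set of 3 loci was nearly absent from the input and abundant with both probes. On chromosome 13 from 116192889 to 116193000, 38.8 kb from the pseudogene Rpl34-ps2, a 112-base member had 3 and 2 input reads, 1305 and 1989 masked reads and 3174 and 23552 TH59-DB reads. Its mean level was 0.853 CPM ± 0.215 (SD, n = 2) in the input, 650 CPM ± 17.8 in the masked and 5428 CPM ± 5188 in the TH59-DB libraries. Every capture library exceeded both inputs, and TH59-DB 2 alone held most of the TH59-DB reads. On chromosome 12 from 102892955 to 102893034, 6.27 kb from Cox8c, a gene for a cytochrome c oxidase subunit, an 80-base member had 6 and 0 input, 766 and 1581 masked and 5292 and 18590 TH59-DB reads. An overlapping model of 2 exons that touches Btbd7 carried nearly the same reads, 18593 in TH59-DB 2. On chromosome 2 from 46225730 to 46225905, 80.4 kb from Gm23072, a 176-base member had 3 and 3 input, 1009 and 1338 masked and 2300 and 8680 TH59-DB reads, and a model overlapping it shared them. At all 3 loci both TH59-DB libraries lay above both masked libraries, by 8.36-fold, 11.3-fold and 4.92-fold in mean CPM. The log2 fold changes were 3.59 (SE 1.25), 3.97 (SE 1.35) and 2.72 (SE 1.03), and none passed (edgeR adjusted p = 0.273, 0.260 and 0.337). With DESeq2 all 3 passed (adjusted p = 0.000946, 5.12e-05 and 0.0115), and the Cox8c locus also did in edgeR with library totals alone (adjusted p = 0.0253). With 5 or 6 input reads they lay just inside the rule.

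**Figure D3:**
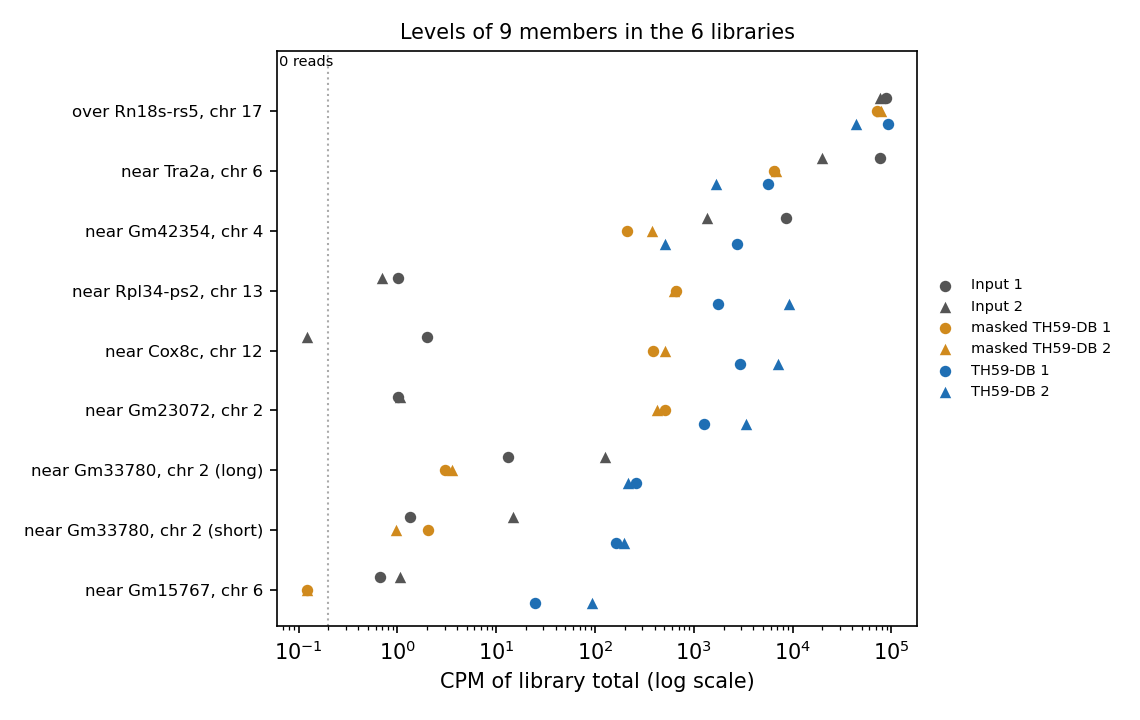
Levels of 9 members in each of the 6 libraries, in CPM of the library total on a log scale, with circles for library 1, triangles for library 2 and 0 reads drawn left of the dotted line. The members near Rpl34-ps2, Cox8c and Gm23072 stand at 2.01 CPM or less in the input and at 389 CPM or more with both probes, and those near Gm33780 and Gm15767 are high only with TH59-DB among the probes.

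The comparison of TH59-DB with the masked probe asks which RNAs the telomere probe held beyond its control. The rule did not use this contrast, but the input libraries were part of the fit, its filter and its estimate of the spread. Every model held at least 5 reads in TH59-DB 1, and 4341 models held 0 in masked TH59-DB 1. The part that this floor had in the calls and fold changes was not tested. A filter on low counts left 251 of the 306 members in the test. Of these, 76 reached the filter level of 3.67 CPM in fewer than 2 libraries outside TH59-DB, 15 of them in none, so all 76 needed at least 1 TH59-DB library to enter the test. At an adjusted p under 0.05, 4 of the 251 members were higher with TH59-DB, against 1.41% of all 5385 models tested, and 0 were lower, against 0% (edgeR's quasi-likelihood test, Benjamini-Hochberg). A share of 1.59% of the members is near that background. Among the models in gene spans under otherwise equal conditions, 7 of 4027 tested were called higher (0.174%). Of the 4 members called, 3 had needed a TH59-DB library to enter, and so had 56 of the 76 models called in all. Where at least 2 libraries outside TH59-DB reached the filter level, 1 of 175 members and 20 of 4161 models were called. At an unadjusted p under 0.05, 32 members were higher, against 8.26% of all models, and 0 were lower, against 1.69%. DESeq2 gave 16 higher of 242 members with an adjusted p, against 4.73% of models, and 0 lower, against 0%. The median log2 fold change of the tested members was 0.95 (quartiles -0.04 and 2.11), with 184 above 0 and 67 below, beside 0.30 for all models tested and 0.22 for models in gene spans. Over the 175 members that reached the filter level in at least 2 libraries outside TH59-DB the median was 0.62, beside 0.02 for the 4161 such models.

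Counted by library, both TH59-DB libraries were above both masked libraries in CPM for 103 members (33.7%). The shares were 21.8% of all models and 13.5% of the models in gene spans. Both TH59-DB libraries were below both masked libraries for 24 members (7.84%), against 9.94% of all models and 13.1% of those in gene spans. The libraries of number 1 gave most of the direction. TH59-DB 1 exceeded masked TH59-DB 1 for 262 members (85.6%, against 84.8% of all models), with a median log2 difference of 3.17. The 130 members with 0 masked TH59-DB 1 reads fell there in advance, as every member had at least 6 TH59-DB 1 reads. TH59-DB 2 exceeded masked TH59-DB 2 for 121 members (39.5%, against 25% of all models), with a median of -0.35 beside -0.71 over all models. The same-numbered comparisons thus ran in opposite directions at the median, in members as in all models.

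**Figure D4:**
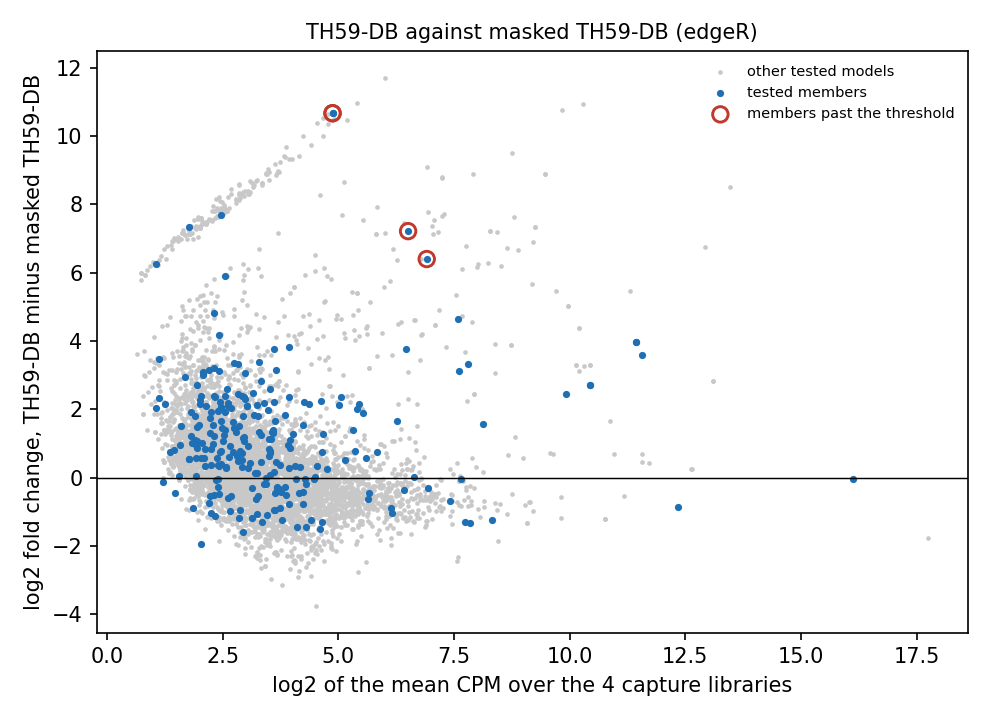
Log2 fold change of TH59-DB against masked TH59-DB from edgeR, against log2 mean CPM over the 4 capture libraries, with the other tested models in grey, the 251 tested members in blue and the 4 that passed ringed. A pair of the 4 coincides because these models share their reads, and the largest values come from models with 0 masked reads.

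The 4 members that passed lie at 2 places. On chromosome 2 from 98664987 to 98665224, 37.4 kb from Gm33780, a member of 238 bases had 4 and 42 input reads, 4 and 3 masked reads and 295 and 512 TH59-DB reads. Its level was 1.5 CPM ± 0.756 with the masked probe and 181 CPM ± 24.2 with TH59-DB (SD, n = 2), a log2 fold change of 7.22 (SE 1.17, edgeR adjusted p = 0.0228). The pooled reads gave a 134-fold ratio with a 95% exact binomial interval of 64.6 to 334, which covers counting error only. On chromosome 2 from 98662237 to 98662982, a member of 746 bases had 39 and 363 input, 6 and 11 masked and 471 and 554 TH59-DB reads. Its log2 fold change was 6.40 (SE 1.06, edgeR adjusted p = 0.0230), and the call was lost when the filter used the inputs alone, where the fold change was 6.57 and the unadjusted p 0.0001002 (edgeR adjusted p = 0.172). The first of these members reached the filter level outside TH59-DB in Input 2 alone, and the second in both inputs. In both members the groups of the probes did not overlap, and the mean masked level was 0.186 and 0.0468 of the mean input level. In the 238-base member the masked libraries (2.03 and 0.961 CPM) overlapped the inputs (1.34 and 14.7 CPM).

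A further pair of models from the same window of chromosome 2 had fold changes in the same direction that passed or not depending on the settings. The model from 98662237 to 98667258, with 2 exons and 1435 exon bases, overlaps the second of the members above, so it shares reads with it. It had 185 and 1682 input reads, 20 and 85 masked reads and 685 and 907 TH59-DB reads (log2 fold change 4.64, SE 1.04, edgeR adjusted p = 0.0611). The model from 98666255 to 98667256, with 517 exon bases, had 139 and 1532 input, 14 and 76 masked and 283 and 433 TH59-DB reads (log2 fold change 3.77, SE 1.03, edgeR adjusted p = 0.125). The longer model passed in 10 of 14 alternatives and the shorter in 7 of 14, among them DESeq2 (adjusted p = 4.39e-07 and 0.000292). All 4 models of this window were higher in Input 2 than in Input 1, by 9.51-fold to 11.5-fold, and the TH59-DB libraries lay between the inputs in the models of 1435 and 517 bases. As background, this stretch of chromosome 2 is known for very high read counts in many mouse sequencing data sets and is commonly masked. The part that repeated sequence had in these counts was not tested.

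At the second place, on chromosome 6 from 147236646 to 147237030, 5.19 kb from Gm15767, a model of 385 bases and an overlapping spliced model of 284 bases held the same reads and count as 1 locus. They had 2 and 3 input reads, 0 and 0 masked reads and 44 and 241 TH59-DB reads. Against a floor of 3 reads per masked library, the TH59-DB level was at least 47.3-fold higher (edgeR adjusted p = 0.0227). The locus was one that entered the test through TH59-DB alone. Without TH59-DB 2 the call was lost (edgeR adjusted p = 0.244). The distance to the end of chromosome 6 was 2.50 Mb, beyond the 1.1 Mb limit of the rule.

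No member passed in the direction of the masked probe, and those with the smallest p were moderately expressed loci seen in every library. On chromosome 12 from 109902523 to 109902721, 7.39 kb from Gm3379, the reads were 38 and 78 in the input, 52 and 158 in the masked and 13 and 33 in the TH59-DB libraries (log2 fold change -1.49, SE 0.74, edgeR adjusted p = 0.609). On chromosome 5 from 124109555 to 124110437, 0.623 kb downstream of Gm16001, they were 308 and 684, 630 and 1134, and 231 and 269 in that order (log2 fold change -1.34, SE 0.70, edgeR adjusted p = 0.654). In both loci the TH59-DB libraries lay below both masked libraries. A spliced model overlapping the second, which touches Pitpnm2, had -1.31 and an adjusted p of 0.657 by edgeR. The most isolated member, on chromosome 2 from 81510791 to 81511334 and 527 kb from any RefSeq gene, had 23 and 40 input, 28 and 149 masked and 16 and 22 TH59-DB reads (log2 fold change -1.44, edgeR adjusted p = 0.678). The remaining ones, on chromosome 5 from 64393676 and chromosome 11 from 17626329, had log2 fold changes of -1.31 and -1.24 (edgeR adjusted p = 0.751 and 0.765).

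The median fold change was above 0 in every class of position relative to genes, as it was over all models tested. Within 10 kb, 73 members lay on the downstream side of a gene, where read-through would fall, and 33 on the upstream side, where divergent RNA would. Their strand is not given, so these classes rest on the gene's strand alone, which was taken from the promoter windows. A further 58 members lay within 10 kb of a gene to which these windows gave no single strand. The median log2 fold change was 0.96 over the 55 tested downstream members and 0.64 over the 25 tested upstream members. It was 1.00 for the 50 tested members near genes with no strand assigned here, 0.89 for 72 at 10 to 100 kb and 0.95 for 32 beyond 100 kb. The 17 tested members that touched a gene span had 1.73. The median level was 2.74 CPM in the input and 7.09 CPM with TH59-DB on the downstream side, and 3.99 and 9.35 CPM beyond 100 kb. None of these differences between classes was tested.

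Most members lay alone, and some lay close to others. Joining members within 10 kb gave 223 groups, of which 183 held 1 member and 40 held the other 123. The largest, with 8 members, ran from 17616997 to 17630092 on chromosome 11, the next, with 7, from 17778282 to 17795993 on the same chromosome, and another with 7 from 64393243 to 64405536 on chromosome 5, near Gm43837. Their median log2 fold changes were 0.33, 0.83 and -0.03, and 0 of their members passed. When members within 50 kb were joined, a distance chosen after the values were seen, the chromosome 11 groups became one of 24 members over 179 kb, lying between Gm18816 and Etaa1, a gene of the replication stress response. Its members summed to 297 and 550 reads in the input, 299 and 1079 in the masked and 560 and 739 in the TH59-DB libraries. In CPM the sums were 99.5 and 193, 152 and 346, and 311 and 285, so the TH59-DB libraries lay between the masked libraries. Of its 22 tested members 17 had a log2 fold change above 0 and 5 below, from -1.58 to 4.82 with a median of 0.84, and 0 passed (smallest edgeR adjusted p = 0.273). Its highest member, from 17697671 to 17698674, had 31 and 56 input, 18 and 145 masked and 89 and 144 TH59-DB reads. In masked TH59-DB 1, 9 of the 24 had 0 reads, and in the other libraries none did.

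**Figure D5:**
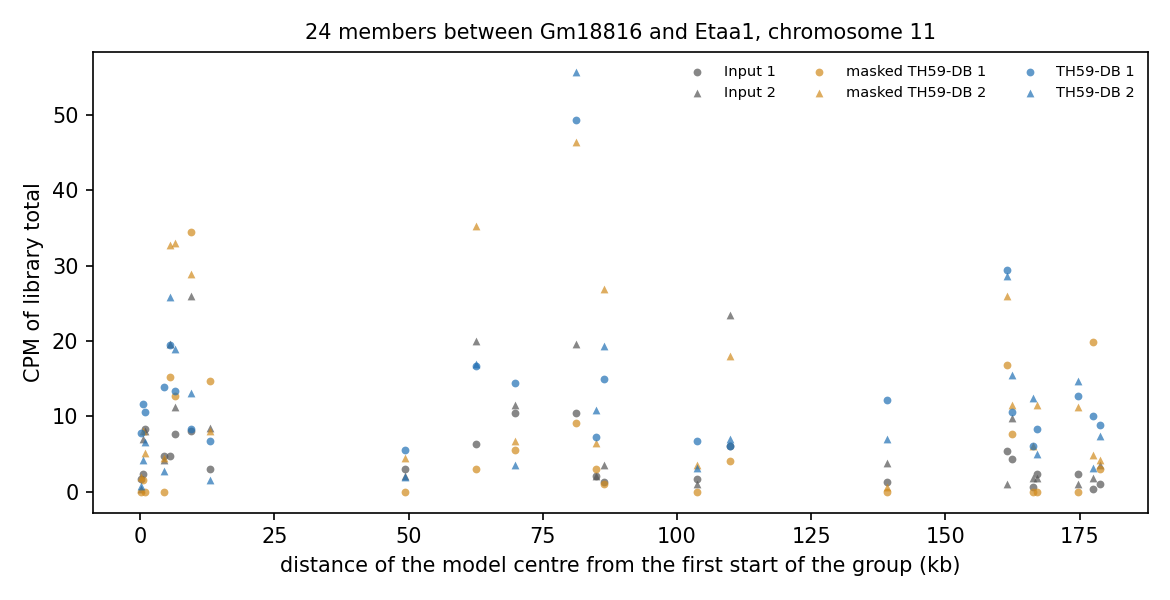
Level of the 24 members between Gm18816 and Etaa1 on chromosome 11, in CPM of the library total, against the distance of each model's centre from the first start in kb, with circles for library 1 and triangles for library 2. The members are spread over 179 kb, and the highest, from 17697671, has its TH59-DB points above its masked points.

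The intergenic models that the rule left out had larger fold changes. Of the 533 intergenic models in the same window with at most 3 input reads, 105 were tested. Their median log2 fold change was 5.24, and 17 were higher (16.2%, against 1.41% of all 5385 models tested). The 165 intergenic autosomal models outside the window had 3.97 over 68 tested, with 3 higher (4.41%). They were taken without a condition on input reads, so they differ from the members in more than position. With at most 3 input reads, all of the silent models could pass the filter only through capture libraries, so their median and that of the members are not alike in how they were reached, and the difference was not tested.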

How the data were processed

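The deposited counts give reads for each assembled model. The authors also gave FPKM values, which are counts over model length and a library total. That total was recovered from them and used for CPM, and the FPKM values were not tested. The submitters' processing notes name cutadapt, HISAT2, Cufflinks and featureCounts, with no version or role, and build mm10. The strand setting of the counting is not given in the sources used here, and most models carry no strand. The files were joined on chromosome, start and end (7695 of 7959 models, with 264 more matched on chromosome, first start and length for the fit only). Gene spans came from RefSeq, GRCm38.p6.

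Counts of all 6 libraries were fitted in edgeR 4.0.16 (R 4.3.3) with filterByExpr, TMM factors, robust glmQLFit and a group term, and tested 2-sided with Benjamini-Hochberg adjustment over 5385 models. The script was tested on simulated counts at a low spread and at about the measured spread. Recovery of most set changes was required at the low spread only. How many true changes are missed at the measured spread is not given here. DESeq2 1.42.0, other scalings, filters, left-out libraries and a replicate block were alternatives. The p-values reflect no more than the spread among these libraries, which may be technical. Ratios against 0 reads use 3 reads per library. Intervals cover counting error only, as reads carry no molecular identifiers. Members named are those past the threshold, the 6 with the smallest p in each direction, the most abundant in each group (8, 5 and 5), 3 with most exons, the 3 largest groups within 10 kb and 2 models on either side of each threshold. One member that this rule names is not reported here. Others were chosen after their values were seen. The members and lists were chosen with earlier results of these data known. Same-numbered libraries of different groups deviated together by 0.14, 0.11 and 0.02 (correlations over 5385 models), so the numbers were not taken as pairs.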

Additional observations from a re-analysis of the deposited data

How the results depend on the processing

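The count of members higher with TH59-DB depended on the settings. From 4 it became 10 with library totals alone, 10 with totals less the 2 largest models, 8 with no filter, 0 with a filter on the inputs alone (104 members tested, 13 at an unadjusted p under 0.05 by edgeR), 1 with overlapping models left out, 2 with more than 10 input reads and 16 with DESeq2. With the replicate number as a block it was 11. The same-numbered libraries share a number and a list of models, and nothing says whether they were prepared together. The block also moved the Cox8c locus (adjusted p = 0.0234) and both further chromosome 2 models past the threshold in edgeR. Leaving out 1 library gave 2 to 70, with 2 without TH59-DB 2, 9 when masked TH59-DB 1 was left out and 70 when masked TH59-DB 2 was. The counts over all models moved too, from 76 of 5385 to 153 of 5385 with library totals alone, 186 of 5385 with the block, 0 of 3439 with the filter on the inputs and 1479 of 7190 without masked TH59-DB 2 (70 of 304 members). The count of lower members was 0 to 7 in those settings, with 7 when masked TH59-DB 2 was left out, and 0 under the other alternatives run. The members' median log2 fold change kept its sign in every edgeR alternative, at 0.51 to 2.81, and was not computed with DESeq2. The median of all models ran from -0.09 to 5.10. Without masked TH59-DB 2 the members' median (2.81) was below that of all models (5.10). Without TH59-DB 2 the medians were close, at 0.98 for members and 0.86 for all models. The members' share of a library (14.3%, 8.85% and 10.0% in input, masked and TH59-DB) was 29.0%, 16.9% and 21.5% with all model reads as the total. It was 6.01%, 1.39% and 3.19% without the most abundant member and 5.98%, 1.30% and 2.65% over members with no base in a gene span. With 1 library left out it ran from 10.4% to 18.2%, 8.41% to 9.29% and 8.15% to 11.9%. Of the members named for their p or for their level with either probe, 1 changed direction, the chromosome 17 member over Rn18s-rs5. From -0.04 it moved to 0.0372 with DESeq2 size factors, 0.0571 with the filter on inputs and 0.0278 with DESeq2. It was 0.00027 with overlapping models left out, and -0.60 to 0.12 with 1 library left out. Members named for their input level alone were not followed through the alternatives. The 238-base chromosome 2 member passed in all 14 alternatives in which it was tested. The filter on the inputs alone left it out of the test. Settings that left out the 3 most captured clusters or kept 1 model per overlapping cluster were chosen after seeing the data, and the latter gave shares of 14.2%, 8.73% and 9.23%. The precision is limited by 2 libraries per group and medians of 3 to 19 reads per member and library.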

Other observations

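Another 5 models met every condition of position and input reads but could not be joined on chromosome, start and end, so they are not members. One of them, with 3 exons and 99 exon bases, on chromosome 4 from 31348679 to 31354292 near Gm32173, had 4 and 2 input reads, 373 and 352 masked reads and 3050 and 20893 TH59-DB reads. Its log2 fold change between the probes was 5.47 (SE 1.39, edgeR adjusted p = 0.0900), and like the 3 loci captured with both probes it was near absent from the input. The other 4 were a 1253-base model on chromosome 3 from 96493108 near a tRNA gene (log2 fold change 0.15), a spliced model on chromosome 5 from 65717145 (0.32), a model of 4 exons next to Arl9 on chromosome 5 (0.26) and a model 1015 bases from Naca on chromosome 10 (2.72, edgeR adjusted p = 0.614). None of the 5 passed.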
